A study of Mus musculus with 7 samples.

Results

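The lecticans are 4 chondroitin sulphate proteoglycans, aggrecan (Acan), brevican (Bcan), neurocan (Ncan) and versican (Vcan), and the hyaluronan and proteoglycan link proteins are the products of Hapln1, Hapln2, Hapln3 and Hapln4. These 8 genes were taken by name from the 49315 genes counted in each library, 1 row per gene, and 7 of them passed the filter on low counts that left 16616 genes for testing. RNA of oligodendroglia derived from mouse brain was sequenced in bulk. The Control group held 3 libraries of genotype Sox9-wt, and the Sox9-tg group held 4 libraries of cells that overexpress Sox9, a transcription factor of the SOX family. The series title places the cells in early postnatal NG2 glia, the dividing progenitors of oligodendrocytes. The labels call the libraries biological replicates, and age in days, strain, the promoter that drives Sox9, and whether libraries came from separate animals or cultures were not stated. The p-values therefore measure the spread between these libraries, which may in part be technical. No structure that the labels name as a batch was available.

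Hyaluronan is a long unsulphated sugar polymer made at the cell surface by hyaluronan synthases. A lectican binds it through its amino-terminal globular domain, a link protein grips both partners and locks the complex, and tenascins crosslink the far ends of the lecticans. In brain, brevican and neurocan are typical of the diffuse matrix, versican is made by NG2 glia and other cells, aggrecan with Hapln1 and Hapln4 is known from perineuronal nets, and Hapln2 and a versican isoform are known from nodes of Ranvier. In cartilage, aggrecan and Hapln1 are major matrix genes under the control of Sox9 and its partners Sox5 and Sox6.

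Sox9 itself, which checks the labels, was at 239, 353 and 293 CPM (counts over the TMM-scaled library size) in the Control libraries and at 2207, 2741, 3597 and 3115 CPM in Sox9-tg replicates 1 to 4. Library totals ran from 15768472 to 30507326 counts. The preparations differed between groups in other cell type markers too. Summed CPM of the 6 NG2 glia markers (Pdgfra, Cspg4, Sox10, Olig1, Olig2, Gpr17) was 1929 to 2416 in Control and 6025 to 9395 in Sox9-tg, with 6 of 6 higher, and 7 of 8 tested markers of differentiating oligodendrocytes were higher, with sums of 189 to 356 and 1219 to 6561. Astrocyte markers summed to 1324 to 2668 and 888 to 1226 (4 of 9 lower), and neuron markers to 2084 to 3240 and 1278 to 2236 (4 of 9 tested lower). Radial glia markers summed to 2964 to 4144 and 2215 to 3293, with 2 of 6 lower. None of the microglia markers (67.4 to 502 and 32.9 to 207) or endothelial markers (6.57 to 130.0 and 10.7 to 31.0) passed the test, and 1 of 6 tested mural and fibroblast markers, Lum, was higher (32.8 to 108 and 22.4 to 49.4). Control replicate 2 held the highest sum of each of these last 3 lists. Chondrocyte markers summed to 151 to 163 in Control and 1155 to 2257 in Sox9-tg, with 6 of 6 tested higher, and Comp too low to test. No marker of these 9 lists was at 0 in all 7 libraries. Of all tested genes, 7.69% were called higher and 5.86% lower. In bulk RNA, fewer cells of a type and less RNA per cell cannot be told apart, and the part of these markers in the results on the lecticans and link proteins was not tested.

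In GENCODE M21 (mouse build GRCm38), each lectican gene lay beside 1 link protein gene with no annotated gene between them. Acan (ENSMUSG00000030607, chr7:79053483-79115099, + strand) and Hapln3 (chr7:79115102-79131018, - strand) ended tail to tail with 2 bases between them. Bcan (chr3:87987531-88000230, - strand) and Hapln2 (chr3:88021750-88027583, - strand) were 21519 bases apart. Ncan (chr8:70093085-70120873, - strand) and Hapln4 (chr8:70083457-70090862, + strand) were 2222 bases apart. Vcan (chr13:89655312-89742509, - strand) and Hapln1 (chr13:89539796-89611652, + strand) were 43659 bases apart. No other annotated gene shared exon bases with any of the 8. The antisense gene Gm4117 lies in the Vcan locus without sharing an exon base, and the use of strand in counting is not stated.

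The promoter sequences below are shown because Sox proteins bind the core ACAAT, whose other strand reads as ATTGT. The genes are the lecticans that changed and link protein genes beside a lectican. RefSeq's promoter table (GRCm38.p6) held 7 of the 8 genes, and Hapln4 was not matched. Each sequence is the 250 bases before the RefSeq start, 5′ to 3′ on the gene's strand, and capitals mark ACAAT or ATTGT. The windows are chr7:79052976-79053225 (+) for Acan, chr13:89742513-89742762 (-) for Vcan, chr7:79131019-79131268 (-) for Hapln3 and chr3:88027512-88027761 (-) for Hapln2. They overlap no UTR annotated by GENCODE for the gene.
Acan: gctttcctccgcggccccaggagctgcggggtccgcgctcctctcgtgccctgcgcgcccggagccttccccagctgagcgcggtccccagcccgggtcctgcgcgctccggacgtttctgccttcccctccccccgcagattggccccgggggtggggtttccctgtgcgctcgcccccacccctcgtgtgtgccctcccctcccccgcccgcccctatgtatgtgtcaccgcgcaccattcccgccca
Vcan: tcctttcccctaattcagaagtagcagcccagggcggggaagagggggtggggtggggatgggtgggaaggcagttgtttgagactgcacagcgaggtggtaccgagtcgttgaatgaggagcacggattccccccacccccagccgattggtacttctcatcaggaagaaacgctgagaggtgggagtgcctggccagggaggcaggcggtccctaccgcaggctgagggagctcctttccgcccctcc
Hapln3: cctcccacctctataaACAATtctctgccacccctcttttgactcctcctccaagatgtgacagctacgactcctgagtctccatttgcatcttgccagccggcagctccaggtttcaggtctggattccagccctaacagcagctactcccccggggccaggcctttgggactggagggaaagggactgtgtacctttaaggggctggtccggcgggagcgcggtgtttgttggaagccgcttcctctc
Hapln2: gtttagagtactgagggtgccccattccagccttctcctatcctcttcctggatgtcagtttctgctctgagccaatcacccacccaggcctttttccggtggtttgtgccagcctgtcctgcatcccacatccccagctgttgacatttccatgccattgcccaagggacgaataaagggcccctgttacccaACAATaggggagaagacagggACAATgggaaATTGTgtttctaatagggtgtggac
The Acan and Vcan windows held no ACAAT on either strand, and neither did those of Bcan and Ncan. The RefSeq starts of Acan and Bcan lie 257 and 126 bases before the GENCODE gene starts, and the bases between were not searched. Hapln1 and Hapln3 had 1 match each, with first bases 249 and 234 bases before the start, and Hapln2 had 3, at 56, 35 and 25. The RefSeq start of Hapln1 differs from the GENCODE gene start by 840 bases, and all 250 bases of its window, like 29 bases of the Ncan window, lie in a UTR annotated by GENCODE, so neither is printed. Of the 32817 promoters in the table, 27.7% held ACAAT on either strand. The longer ACAATGG was in 3.02% of all promoters and, among the 7, in Hapln2, where it contains one of the ACAAT matches. AACAAT was in 9.42% of all promoters and was matched in Hapln2 and Hapln3. The Hapln2 matches nearest the start face each other, 5 bases apart, as ACAATgggaaATTGT, 35 to 21 bases before the start. The RefSeq start of Hapln2 lies 72 bases inside the gene as annotated by GENCODE. All 3 Hapln2 matches therefore lie within the GENCODE gene and not before it. The spaced form ACAATNNNNNATTGT was searched after it was seen there and was in 10 of the 32817 promoters (0.0305%). A TATAAA was matched in Hapln3 on its own strand and in Ncan on the other strand, against 12.4% of all promoters. Acan's window had 74.4% G and C and Hapln2's 52.4%, where the median promoter had 52.4%. A match is a description of letters, and letters outside these 250 bases were not searched.

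Acan, Vcan and Hapln1 were higher in Sox9-tg than in Control libraries. Bcan, Ncan, Hapln3 and Hapln4 did not pass the test, and Hapln2 was too low to test. With edgeR's quasi-likelihood test and Benjamini-Hochberg adjustment over the 16616 genes (threshold 0.05), 3 of the 7 tested members were higher and 0 were lower. Without Control replicate 3 the call of Acan alone was kept, without Control replicate 1 those of Acan and Vcan, and without Control replicate 2 Bcan was called too. Over all tested genes, 13.5% were called, 7.69% as higher and 5.86% as lower. The CPM ranges of the groups did not overlap for 3 of the 7 tested members, each with Sox9-tg above Control, where 13.1% of all tested genes were above in this way and 11.5% below. The plot of levels by library shows the 3 separated genes beside the 5 that overlap or lie near the floor of the counts.

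**Figure D1:**
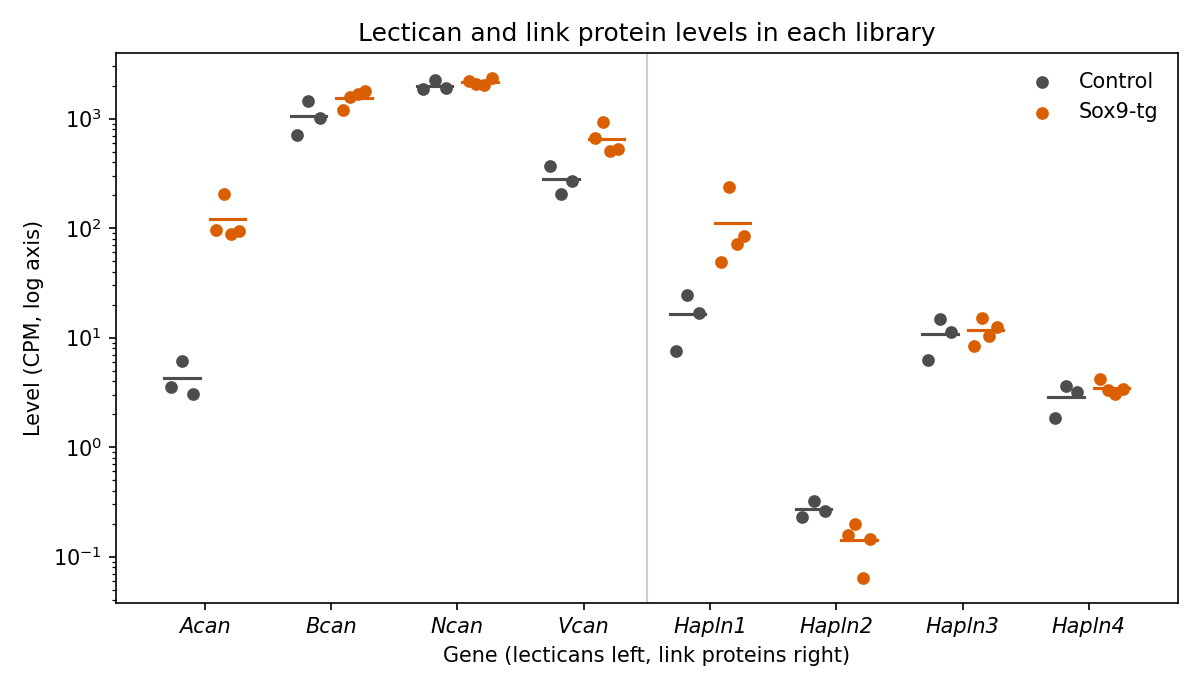
Level of each lectican (left) and link protein gene (right) in CPM on a log axis, 1 point per library, with a bar at the group mean; 3 Control libraries are grey and 4 Sox9-tg libraries orange. Acan, Vcan and Hapln1 are separated between groups, and Hapln2 is under 0.4 CPM in each library.

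Acan encodes aggrecan, the lectican with the most chondroitin sulphate chains. It was at 3.55, 6.11 and 3.07 CPM in Control replicates 1 to 3 and at 95.5, 207, 88.6 and 93.3 CPM in Sox9-tg replicates 1 to 4. The lowest Sox9-tg library lay far above the highest Control library, and replicate 2 stood above the other three Sox9-tg libraries. The means were 4.24 ± 1.63 (SD, n = 3) and 121 ± 57.1 (SD, n = 4), a 28.5-fold difference. The log2 fold change was 4.82 (SE 0.42, adjusted p = 0.000323 by edgeR's quasi-likelihood test), and 0.126% of tested genes had a larger one. Acan rested on 344 counts in Control and 9246 in Sox9-tg, so the gene was detected in every Control library, with 61 counts in the lowest.

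Vcan encodes versican, a large lectican found in many tissues and spliced into several forms. Control libraries had 365, 204 and 271 CPM, and Sox9-tg libraries 671, 922, 502 and 533 CPM. The groups did not overlap, and replicate 2 was again the highest of the Sox9-tg libraries. The means were 280.1 ± 81.0 (SD, n = 3) and 657 ± 191 (SD, n = 4), with a log2 fold change of 1.23 (SE 0.27, adjusted p = 0.0178 by the same edgeR test). Without Control replicate 3 the adjusted p for Vcan was 0.0776 at a log2 fold change of 1.20.

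Bcan encodes brevican, a lectican of the brain with secreted and membrane-anchored forms. It was at 705, 1441 and 1009 CPM in Control and at 1201, 1560, 1674 and 1777 CPM in Sox9-tg libraries. The groups overlapped, since Control replicate 2 lay above Sox9-tg replicate 1. The means were 1052 ± 369 (SD, n = 3) and 1553 ± 251 (SD, n = 4), and the log2 difference of 0.56 (SE 0.25) did not pass the test (edgeR adjusted p = 0.193). Without Control replicate 2 the difference was 0.87 with an edgeR adjusted p of 0.0499.

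Ncan encodes neurocan, a secreted lectican that is abundant in developing brain. Its levels were 1850, 2230 and 1900 CPM in Control and 2207, 2052, 2030 and 2349 CPM in Sox9-tg libraries, overlapping throughout. The log2 difference was 0.12 (SE 0.15, edgeR adjusted p = 0.678). Ncan had the smallest SE of the 7 tested members, and a p that misses the threshold does not show that its level was equal in both groups.

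Hapln1 encodes the link protein of cartilage and of perineuronal nets. It was at 7.56, 24.5 and 16.8 CPM in Control and at 48.7, 237, 71.5 and 84.0 CPM in Sox9-tg libraries. The groups did not overlap, but the highest Sox9-tg library, replicate 2, was 4.88 times the lowest, and the highest Control library 3.24 times the lowest. The means were 16.3 ± 8.49 (SD, n = 3) and 110.4 ± 86.0 (SD, n = 4), 6.78-fold apart, with a log2 fold change of 2.75 (SE 0.61, edgeR adjusted p = 0.0186). The edgeR adjusted p was 0.0599 without Control replicate 1 and 0.0770 without Control replicate 3, and the log2 fold change was 2.07 without Sox9-tg replicate 2.

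The other link proteins showed no called change. Hapln3, a link protein of wide tissue expression, was at 6.28, 14.9 and 11.3 CPM in Control and 8.40, 15.3, 10.4 and 12.5 CPM in Sox9-tg libraries (log2 difference 0.10, SE 0.30, edgeR adjusted p = 0.872). The sign of the Hapln3 difference turned to -0.16 when Control replicate 1 was left out and to -0.04 when Sox9-tg replicate 2 was, so no direction is given. Hapln4, a link protein known from perineuronal nets and from synapses of the hindbrain, was at 1.86, 3.64 and 3.17 CPM in Control and 4.20, 3.29, 3.03 and 3.42 CPM in Sox9-tg libraries (log2 difference 0.26, SE 0.30, edgeR adjusted p = 0.634). Both genes overlapped between groups. Hapln2, the link protein of nodes of Ranvier, had 4, 10 and 8 counts in Control and 3, 4, 1 and 3 counts in Sox9-tg libraries. In CPM these were 0.232, 0.325 and 0.259 against 0.158, 0.200, 0.0644 and 0.146, so each Control library lay above each Sox9-tg library. The Sox9-tg counts were at or near 3, and no fold is given. A count of 3 corresponds to 0.146 to 0.193 CPM in the Sox9-tg libraries and to 0.0970 to 0.174 CPM in the Control libraries. A fit without the low-count filter gave an edgeR adjusted p of 0.584.

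Per kilobase of annotated exon, which allows levels of different genes to be compared, the order in Control was Ncan (277 ± 28.7 CPM per kb, SD, n = 3), Bcan (259 ± 90.9), Vcan (19.4 ± 5.60), Hapln3 (3.08 ± 1.23), Hapln1 (2.76 ± 1.44), Hapln4 (0.736 ± 0.235), Acan (0.568 ± 0.219) and Hapln2 (0.115 ± 0.0201). The ranges of Ncan and Bcan, of Hapln3 and Hapln1, and of Hapln4 and Acan overlapped, and these neighbours in the order are not separated by range. Hapln3 was above Hapln1 in each of the 3 libraries. The order of Ncan and Bcan changed with the length used. With the longest transcript as length, Bcan held 51.7% and Ncan 44.4% of the Control lectican sum. In Sox9-tg the order was Bcan (382 ± 61.8 CPM per kb, SD, n = 4), Ncan (300.1 ± 20.7), Vcan (45.4 ± 13.2), Hapln1 (18.7 ± 14.6), Acan (16.2 ± 7.64), Hapln3 (3.32 ± 0.835), Hapln4 (0.888 ± 0.129) and Hapln2 (0.0599 ± 0.0238). There, the ranges of Bcan and Ncan, of Vcan and Hapln1 and of Hapln1 and Acan overlapped, although Vcan was above Hapln1 in each of the 4 libraries. Acan moved from the seventh to the fifth place, above Hapln3 and Hapln4 in all 4 Sox9-tg libraries.

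The lectican sum was 556 ± 113 CPM per kb in Control (SD, n = 3) and 744 ± 63.0 in Sox9-tg (SD, n = 4). Acan was 0.0774% to 0.120% of that sum in Control and 1.54% to 3.64% in Sox9-tg libraries, so even at its highest it was a small share of lectican RNA. Bcan made up 38.0% to 52.2% and 44.7% to 55.6%, Ncan 45.6% to 56.3% and 37.5% to 46.4%, and Vcan 2.08% to 5.53% and 4.53% to 8.38%. Bcan and Ncan together were thus the bulk of lectican RNA in each library, and only the Acan ranges are apart between the groups. The link protein sum was 3.64 to 9.45 CPM per kb in Control and 11.8 to 45.5 in Sox9-tg. Hapln1 was 35.2% to 44.0% of it in Control and 70.0% to 88.4% in Sox9-tg, while Hapln3 went from 44.8% to 49.1% down to 9.55% to 20.3%. Per kb, Hapln3 thus held the largest share in Control and Hapln1 in Sox9-tg, though the level of Hapln3 did not pass the test. Without division by length, Hapln1 held 52.4% and Hapln3 36.5% of the Control link protein sum. The link protein sum was 0.797% to 1.39% of the lectican sum in Control and 1.78% to 5.98% in Sox9-tg, with replicate 2 the highest and the other three at 2.30% or below. These shares are descriptions, with no test, and a share moves when any gene in the sum moves.

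**Figure D2:**
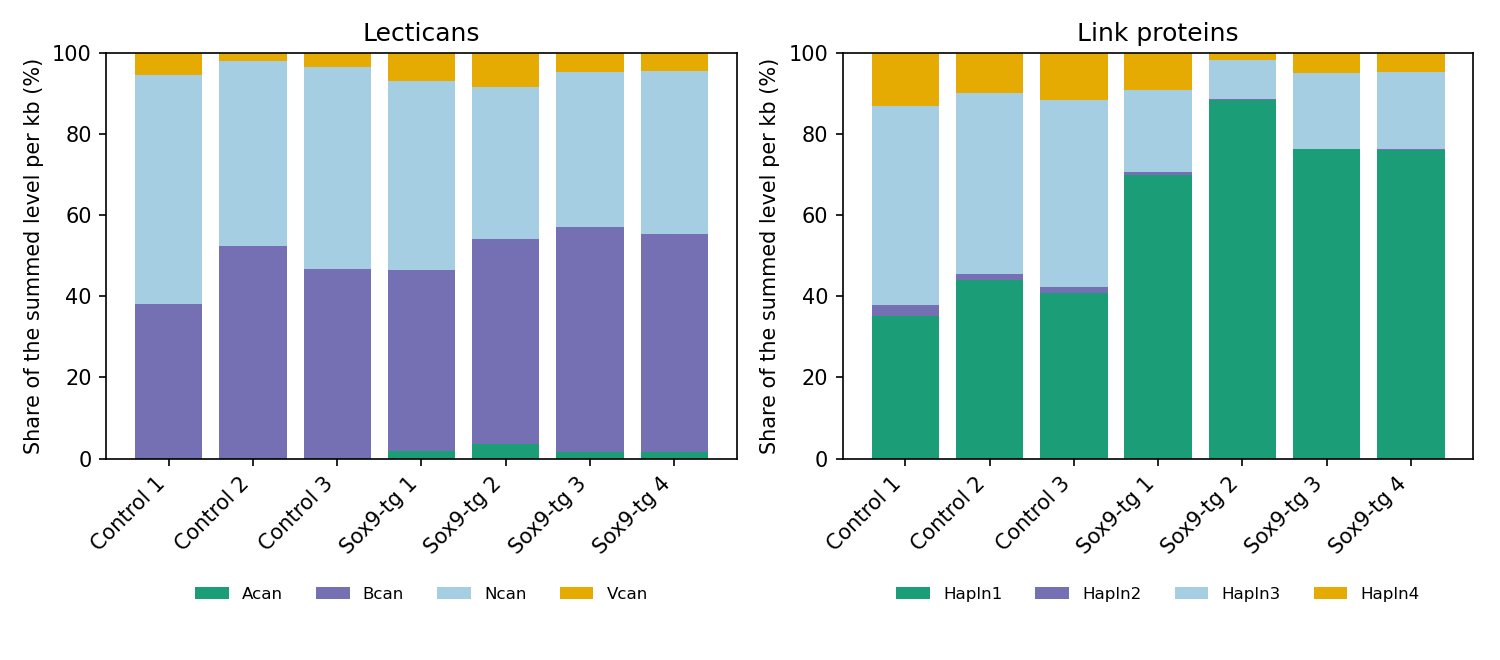
Share of each gene in the summed level per kilobase of exon, in percent, for the lecticans (left) and the link proteins (right), 1 stacked bar per library. Bcan and Ncan fill most of each lectican bar, and Hapln1 fills 35.2% to 44.0% of the Control and 70.0% to 88.4% of the Sox9-tg link protein bars.

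Whether the neighbours on a chromosome changed by the same factor was asked with the log2 ratio of lectican to link protein CPM in each library (pseudocount 0.1 CPM). The ratio of Acan to Hapln3 was -0.81, -1.27 and -1.85 in Control and 3.49, 3.75, 3.07 and 2.89 in Sox9-tg libraries. In Control less Acan than Hapln3 RNA was counted, and in each Sox9-tg library more, a difference of 4.61 between group means. The ratio of Vcan to Hapln1 was 5.58, 3.05 and 4.00 in Control and 3.78, 1.96, 2.81 and 2.66 in Sox9-tg libraries. Its difference of -1.41 goes the other way, with overlapping groups, and was -0.73 without Control replicate 1. The ratio of Bcan to Hapln2 differed by 1.25 with groups apart, but rests on 1 to 10 Hapln2 counts per library, and that of Ncan to Hapln4 by -0.19. By exact two-sided permutation tests over libraries, p was 0.0571 for Acan and Hapln3, 0.0571 for Bcan and Hapln2, 0.114 for Vcan and Hapln1 and 0.571 for Ncan and Hapln4. The Benjamini-Hochberg values over the 4 pairs were 0.114, 0.114, 0.152 and 0.571. The two-sided p used here doubles the smaller single-direction p. In this form 0.0571 is the smallest p that 3 against 4 libraries can give.

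**Figure D3:**
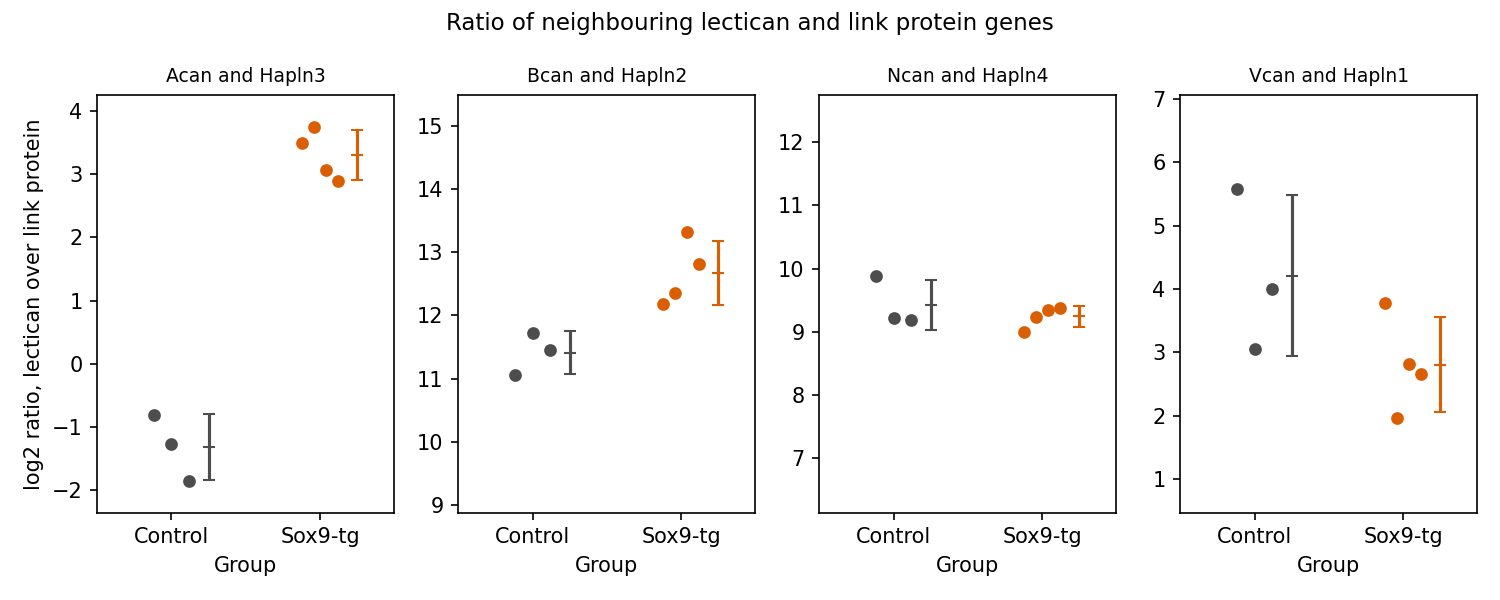
log2 ratio of lectican to neighbouring link protein level in each library (points), with the group mean ± SD to the right; each panel spans the same number of log2 units around its own centre. The Acan to Hapln3 ratio lies between -1.85 and -0.81 in Control and between 2.89 and 3.75 in Sox9-tg libraries.

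Among the other protein-coding genes within 100 kb of a member, Nes, Iqgap3 and Crabp2 passed the test. The rest of those tested did not pass. Over all tested genes, 13.5% were called, and whether calls were more frequent near the members was not tested. Nes, the intermediate filament gene of neural progenitors, lies 7080 bases from Bcan and fell (206 to 80.0 mean CPM, log2 fold change -1.36, edgeR adjusted p = 0.00198). Iqgap3 fell by 1.00 on the log2 scale and Crabp2 by 1.27 near Bcan and Hapln2 (edgeR adjusted p = 0.0249 and 0.0470). Mfge8, which lies 2750 bases from Hapln3, did not pass (-0.62, edgeR adjusted p = 0.0943), nor did Xrcc4 next to Vcan (0.19, edgeR adjusted p = 0.485). None of the genes tested near Ncan and Hapln4 was called.

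The genes most like each tested member were found by the root mean square difference of centred log2 CPM over the 7 libraries. Genes averaging 5 CPM or more in either group were compared, leaving out predicted, clone-named, unnamed and mitochondrial genes. For Acan they were Col2a1 (0.206) and Col9a1 (0.302), collagens of cartilage, and Erbb3 (0.344), a neuregulin receptor of glia. Col2a1 went from 23.0 to 758 and Col9a1 from 6.92 to 227 mean CPM. Hapln1 was followed most closely by S100a1 (0.264), Srpk3 (0.334) and S100a6 (0.345), and Vcan by Trio (0.184), Mical3 (0.206) and Pxylp1 (0.207), a phosphatase that acts on the xylose of the chain linkage. For Bcan the closest were Cspg5 (0.0833), itself a brain chondroitin sulphate proteoglycan, Slc12a4 (0.0849) and Nog (0.0851). Ncan was nearest to Klhl42, Nkiras1 and Dip2a, Hapln3 to Ctsl, Cox6b2 and Akr1b10, and Hapln4 to Fut9, Tpcn2 and Rims1, all at 0.0598 to 0.122. These are likenesses of 7 values that share the same 7 libraries and the group difference. The Sox9-tg library with the highest Acan, Vcan and Hapln1, replicate 2, also had the highest sums of chondrocyte markers (2257 CPM) and of differentiating oligodendrocyte markers (6561 CPM), while the highest Sox9 level, 3597 CPM, was in replicate 3.

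**Figure D4:**
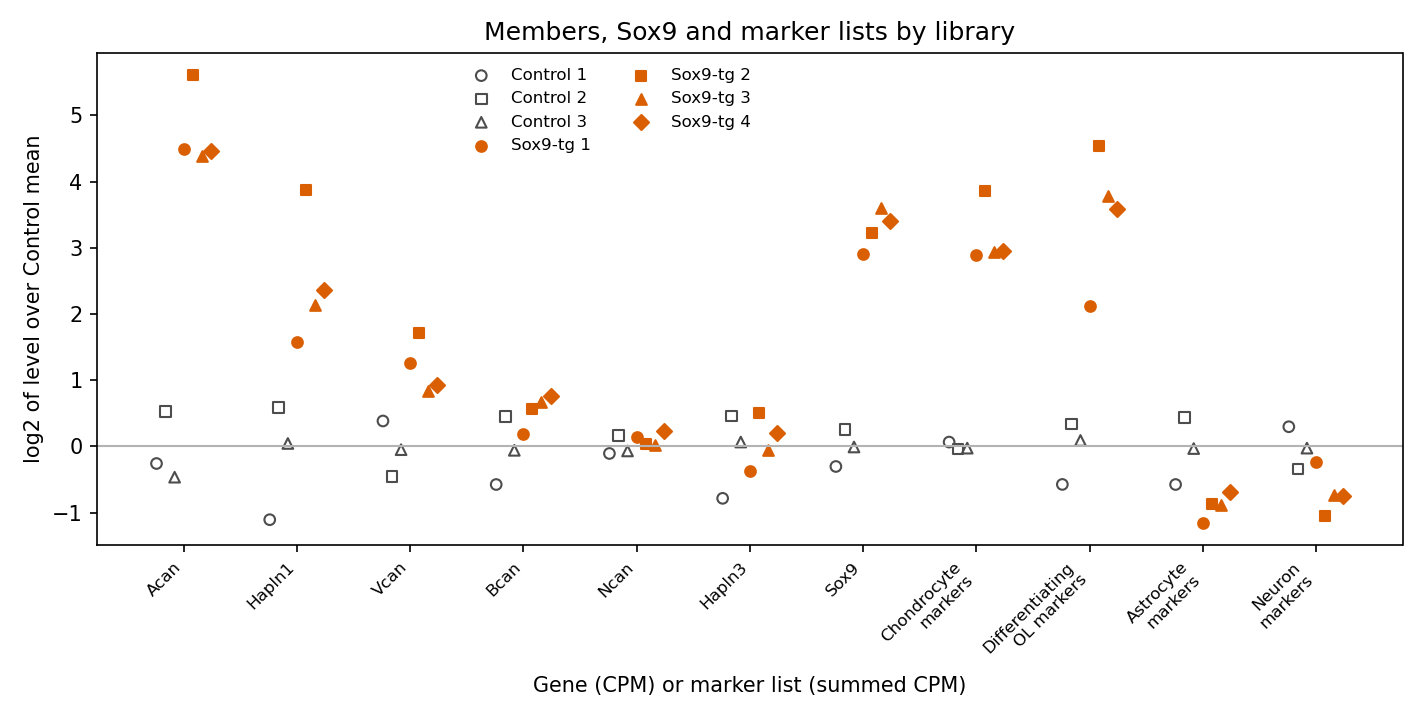
log2 of each library's level over the Control mean for 6 members, Sox9 and 4 summed marker lists; open grey symbols are Control and filled orange symbols Sox9-tg libraries, with 1 shape per replicate. Sox9-tg replicate 2 (square) is the highest for Acan, Hapln1, Vcan, chondrocyte markers and differentiating oligodendrocyte (OL) markers, and replicate 3 for Sox9.

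The pathway around these genes was followed in 11 lists with 108 genes, of which 94 were tested. Of these, 23 were higher and 9 lower, where 7.69% of all tested genes were called higher and 5.86% lower. The same shares over all tested genes stand beside the counts of each list below. The lists were chosen with earlier results of these data known, so these comparisons are descriptions and not a test of the lists. The median log2 fold change of the listed genes was 0.25 against -0.01 over all tested genes. With upper-quartile scaling 19 were higher and 12 lower. Of the 32 calls, 15 held in each fit that left out 1 library. Among those fits the counts ran from 13 higher and 4 lower without Control replicate 3 to 29 and 11 without Sox9-tg replicate 1. In hyaluronan synthesis, 2 of 3 tested genes rose. Has2, a hyaluronan synthase, was at 10.3 to 16.8 CPM in the 3 Control libraries and at 43.8, 46.6, 53.6 and 55.8 CPM in Sox9-tg replicates 1 to 4 (log2 fold change 1.93, SE 0.19, edgeR adjusted p = 0.000498). Ugdh, which makes the UDP-glucuronate used for hyaluronan and for chondroitin chains, went from 95.7, 98.7 and 103 CPM to 283, 409, 352 and 404 CPM (1.87, SE 0.16, edgeR adjusted p = 0.000287). Neither gene overlapped between groups, and both calls held without any 1 library. None of the 5 tested genes of hyaluronan breakdown passed. Among hyaluronan receptors 1 of 4 tested, Hmmr, fell (-1.14, edgeR adjusted p = 0.0164), with values of 0.0722 when Control replicate 1 was left out, and 0.0511 and 0.0523 for Sox9-tg replicates 3 and 4. Itih3, which encodes a heavy chain that is transferred onto hyaluronan, fell from 26.2, 70.5 and 37.2 CPM to 8.72, 9.23, 13.7 and 14.7 CPM (-1.95, edgeR adjusted p = 0.00624), the only call among 4 tested hyaluronan-binding proteins.

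Lectican-cleaving proteases had 3 of 10 tested genes higher and 1 lower. Adamts4, an aggrecanase, was at 12.4 to 21.7 CPM in the 3 Control libraries and at 29.9, 65.9, 56.2 and 49.8 CPM in Sox9-tg replicates 1 to 4 (log2 fold change 1.63, SE 0.29, edgeR adjusted p = 0.00719). Adamts9 rose by 1.03 (edgeR adjusted p = 0.0106), and Adamts5, the other main aggrecanase, by 1.56 (0.0120, but 0.0666 without Control replicate 3). The call of Mmp14, a membrane metalloprotease, at -0.41 (edgeR adjusted p = 0.0444) was lost without each of 6 libraries, all except Sox9-tg replicate 1, at 0.109 to 0.154. Of 4 inhibitors, Timp2 was higher (0.68, edgeR adjusted p = 0.0276), with values of 0.0964 and 0.131 without Control replicates 1 and 3, and 0.0536, 0.0645 and 0.0627 without Sox9-tg replicates 2, 3 and 4. Genes for the lectican-cutting enzymes Adamts4 and Adamts9 were thus higher in the same libraries as Acan, Vcan and Hapln1; RNA levels say nothing of cleavage.

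The 2 tenascins that bind lecticans moved in opposite directions. Tnr, tenascin-R, made by oligodendroglia and a crosslinker of perineuronal nets, was at 109, 142 and 116 CPM in Control and at 747, 2263, 1106 and 937 CPM in Sox9-tg replicates 1 to 4 (log2 fold change 3.37, SE 0.40, edgeR adjusted p = 0.00121). Tnc, tenascin-C, a matrix protein of progenitor cells and astrocytes, fell from 1189, 913 and 693 CPM to 268, 284, 271 and 403 CPM (-1.60, SE 0.22, edgeR adjusted p = 0.00237). Neither gene overlapped between groups, and both calls held without any 1 library. The fibulin gene Fbln1 fell by 0.89 (edgeR adjusted p = 0.0170; 0.0789 and 0.0684 without Control replicates 1 and 3, and 0.0524 without Sox9-tg replicate 3), and Fbln2 fell by 0.53 (0.0169; 0.0712, 0.0684 and 0.0885 without Control replicates 1, 2 and 3). Of 12 receptors and adhesion partners, 2 were higher and 2 lower. Cntn1, contactin-1, a partner of tenascin-R, rose by 2.26 and Nfasc, neurofascin, by 2.82 (edgeR adjusted p = 0.000275 and 0.00299). L1cam fell by 0.75 (edgeR adjusted p = 0.0111, and 0.0558 and 0.0517 without Control replicates 1 and 3). Nrcam fell by 0.49 (0.0163, and 0.0544 to 0.0876 without any 1 Control library and 0.0717 without Sox9-tg replicate 3). Ptprz1, a receptor phosphatase that is itself a chondroitin sulphate proteoglycan, differed by 0.34 without passing (edgeR adjusted p = 0.235).

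Of the 4 perineuronal net associated genes, Crtac1 was higher (0.98, edgeR adjusted p = 0.0121, but 0.0587 without Control replicate 1), and Nptx2, a neuronal pentraxin, fell by 0.94 (0.00190). Of the neuron markers, 4 of 9 tested were lower, and their part in the Nptx2 result was not tested. Of 21 tested chondroitin sulphate chain enzymes, 9 were higher and 0 lower, and the median log2 fold change was 0.44. The number higher was 3 without Control replicate 3, 5 without Control replicate 1 or any of Sox9-tg replicates 2, 3 and 4, 9 when Control replicate 2 was left out, 10 for Sox9-tg replicate 1, and 6 with upper-quartile scaling. Xylt1, which starts the chain by adding xylose to the core protein, was at 163, 200 and 174 CPM in Control and at 572, 653, 449 and 496 CPM in Sox9-tg libraries (1.60, SE 0.17, edgeR adjusted p = 0.000738). Chst11, a chondroitin 4-O-sulphotransferase, rose by 1.75 (edgeR adjusted p = 0.000576), and Ust, a uronyl 2-O-sulphotransferase, by 2.74 (0.00525); these 3 calls held without any 1 library. The other 6, Fam20b, Chst3, Chsy3, Dse, Xylt2 and Chst15, had log2 fold changes of 0.47 to 1.58, and each lost its call without at least 1 library. Other proteoglycans had 4 of 22 tested genes higher and 0 lower, with 2 higher when Control replicate 3 was left out. Cspg4, the NG2 proteoglycan and one of the NG2 glia markers above, rose by 2.38 (edgeR adjusted p = 0.000236) and the glypican Gpc6 by 0.94 (0.00478), and both calls held. Lum, the small leucine-rich proteoglycan lumican, had 0, 0.325 and 0.0323 CPM in Control and 1.37, 6.88, 2.83 and 2.34 CPM in Sox9-tg libraries (edgeR adjusted p = 0.0150, and 0.0690 without Control replicate 3). Hspg2, perlecan, was higher by 1.86 (edgeR adjusted p = 0.0418, and 0.103 and 0.142 without Control replicates 1 and 3, and 0.0566 without Sox9-tg replicate 4), and its log2 fold change was 1.25 without Sox9-tg replicate 2.

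**Figure D5:**
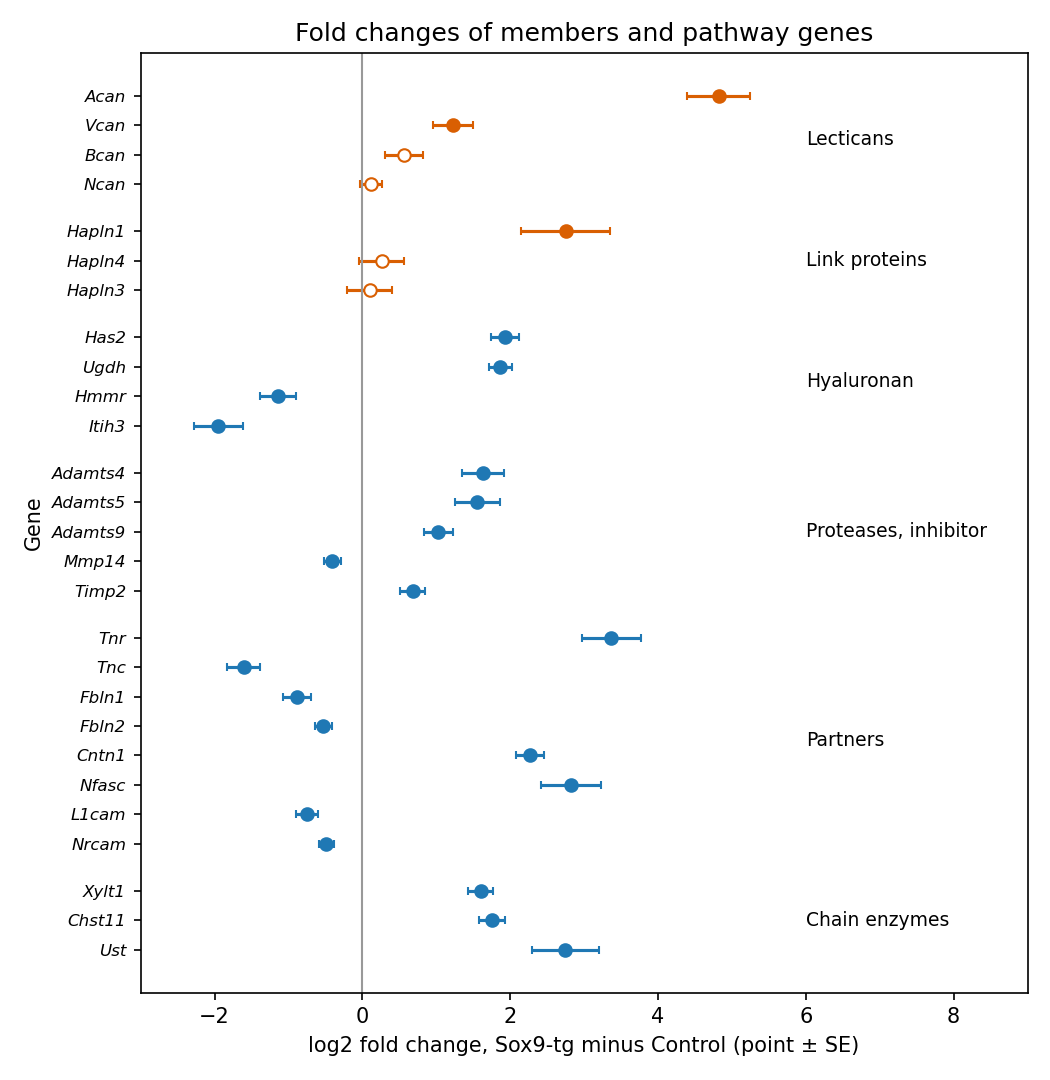
log2 fold change (Sox9-tg minus Control) of the 7 tested members (orange) and of 20 called pathway genes (blue), with bars of 1 SE; filled points passed the edgeR test at 0.05 and open points did not. Acan has the highest value of those drawn at 4.82, and Tnr and Tnc lie on opposite sides of 0 at 3.37 and -1.60.

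Leaving out Control replicate 2 and Sox9-tg replicate 2 together, the libraries with the most microglial and endothelial RNA in their groups, was chosen after seeing the data. The log2 fold changes were then 4.83 for Acan, 0.85 for Vcan and 2.48 for Hapln1 (edgeR adjusted p = 7.1e-05, 0.0346 and 0.00875), and 0.87 for Bcan (0.0608). Sox9-tg replicates 3 and 4 lay closer to each other than any other libraries of a group did. The chi-square per degree of freedom was 5.08 for them and 43.7 to 91.9 for the other pairs. They differed by more than sampling noise, which does not show whether they came from separate animals or cultures. The labels call them biological replicates, and they were kept as 2 libraries. Summed as 1 library, chosen in the same way, they left 3 members higher, with log2 fold changes of 4.94, 1.33 and 2.89 for Acan, Vcan and Hapln1. In that fit 18 listed pathway genes were higher and 6 lower, where the main fit had 23 and 9. The chondroitin sulphate chain enzymes called higher were 5, where the main fit had 9.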

How the data were processed

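Per the labels, total RNA of mouse oligodendroglia was extracted with a column kit and sequenced as paired reads. The authors deposited raw whole-number counts per gene for each library. Per the submitters' processing notes, the tools were featureCounts with Subread 1.5.2, STAR 2.5.2b, Trimmomatic 0.36, DESeq and DESeq2, and the build was GRCm38. How strand and multiply matching reads were treated is not given in the sources used here.

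Here, filterByExpr at its defaults (minimum count 10, total 15) left 16616 genes, libraries were scaled with TMM (0.965 to 1.05), and edgeR 4.0.16 in R 4.3.3 fitted quasi-likelihood models with a single term for group, two-sided, Benjamini-Hochberg adjusted over all tested genes at 0.05. The SE is the log2 fold change divided by the square root of F. Genes outside the filter held 0.0798% to 0.364% of counts, and the biological coefficient of variation was 0.265. Levels per kb used the union of GENCODE M21 exons. The scripts were tested on simulated data. Alternatives were DESeq2 1.42.0, limma 3.58.1 (voom), other scalings, filters, lengths and pseudocounts, a replicate block and leaving out each library. Counting limits cover counting error only.

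The members and the gene lists were chosen with earlier results of these data known. Their counts of calls beside the shares over all tested genes are therefore descriptions and not a test. Genes open to naming were all members, Sox9, list genes past the threshold, up to 4 others per list with the smallest p, and the 3 genes with the profile most like each tested member.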

Additional observations from a re-analysis of the deposited data

Results flagged for a closer look

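Of 50 quantities examined in the 4 Sox9-tg libraries, 4 had 1 library far from the others, with a gap to the nearest library above the 95% limit of Dixon's test; by chance about 1 in 20 groups is picked out in this way. Acan was at 207 CPM in Sox9-tg replicate 2, where the other three libraries had 88.6 to 95.5 CPM. The share of Hapln3 in the link protein sum was 9.55% in the same replicate and 18.7% to 20.3% in the others. Hspg2 was at 189 CPM in replicate 2 and at 50.2 to 65.8 CPM in the others. Tnc was at 403 CPM in Sox9-tg replicate 4 and at 268 to 284 CPM in the others.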

How the results depend on the processing

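The numbers of genes changed and of members changed, 2251 and 3, ranged from 965 to 3169 and from 1 to 4 when 1 library was left out. The genes changed numbered 3048 with DESeq2, 2248 with limma-voom, 2084 without a filter and 1358 with Sox9-tg replicates 3 and 4 summed; each of these gave 3 members. Acan kept its call and direction under all 16 alternatives (log2 fold change 4.44 to 5.20). Over the fits without 1 library, the log2 fold change of Bcan ran from 0.36 to 0.87 (past the threshold without Control replicate 2), that of Vcan from 1.04 to 1.47 (1.20 where its call was lost), that of Hapln1 from 2.07 to 3.16 (2.42 and 2.76 where its call was lost) and that of Hapln3 from -0.16 to 0.40 (also -0.04). The difference of the Ncan to Hapln4 ratio ran from -0.31 to 0.041.

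The labels do not say that replicate numbers pair libraries, so the main fit did not pair them. Same-numbered libraries of the groups had correlations of their deviations from the group means of 0.363, 0.618 and 0.0748 for replicates 1 to 3. Libraries of unlike number had -0.518 to 0.166, and replicates 1 and 2 each correlated best with their own number. Control replicate 3 correlated better with Sox9-tg replicate 1 (0.166) than with its own number. With the replicate block, on libraries 1 to 3 of each group, 3086 genes and 3 members were called. The log2 fold changes were then 4.91 for Acan, 1.32 for Vcan and 2.70 for Hapln1 (edgeR adjusted p = 7.8e-07, 0.00525 and 3.9e-05).

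Without division by length, Ncan held 60.1% of the Control lectican sum and Hapln1 52.4% of the Control link protein sum. In Sox9-tg, Ncan then held 48.2% and Bcan 34.5% of the lectican sum, the reverse of their order per kb. Hapln2 was the only member removed by the low-count filter, with 22 counts in Control and 11 in Sox9-tg. Among the tested members Hapln4 had the fewest counts, 242 in Control and 263 in Sox9-tg.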
